A study of Mus musculus with 17 samples.

Results

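The clustered protocadherins are the 59 genes, of 55359 in the count table, whose mouse symbol begins with Pcdha, with Pcdhb and a number, or with Pcdhg. They were chosen by symbol alone, 15 in the alpha cluster, 22 in the beta cluster and 22 in the gamma cluster. Their RNA was measured in 17 libraries from newborn male mice at postnatal day 1, 9 from brain and 8 from testes. WT pups of WT mothers gave 3 brain and 2 testes libraries, and Ocn+/− and Ocn−/− pups, labelled Heterozygous and KO, gave 3 libraries of each organ per genotype. The study's clustering of forebrains names fewer WT brains than the labels hold, and which was left out there is not given. Ocn encodes osteocalcin, a hormone secreted by bone. All mutant pups came from Ocn−/− mothers and carried the Ocn_GK allele, made by homologous recombination in embryonic stem cells and kept on a 129/SvEv background. Pup genotype, mother and litter therefore changed together between WT and mutant pups and cannot be told apart. The labels call the brain tissue hippocampus, while the study's text calls it forebrain, and it is named brain here. The study describes the tissues of each genotype as taken from several mice, while the labels do not tie each library to a pup, and the p-values measure the spread between these libraries.

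Clustered protocadherins are cadherin-type adhesion proteins of the neuronal surface. Each neuron displays its own combination of them, and matching combinations on touching membranes allow neurites of the same cell to recognise and avoid each other. In the alpha and gamma clusters, each member has its own promoter and its own variable first exon, which encodes the extracellular and membrane-spanning part and is spliced to constant exons shared by the whole cluster. The beta genes carry everything in a single exon. Most promoters are chosen at random in each neuron, through DNA methylation and through loops that CTCF and cohesin make with distant enhancers, whereas the C-type members at the 3′ end of the alpha and gamma clusters are regulated differently.

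All members lie on the plus strand of chromosome 18 (GRCm39). The alpha cluster spans 37063237 to 37320716 without Pcdha4b, the beta cluster 37397991 to 37657532 and the gamma cluster 37794846 to 37975014. Every alpha and gamma member has 4 exons, and, except in Pcdha4b, 3 of them overlap those of the other members of the cluster. These shared exons hold 2860 to 2866 bases per alpha member and 2116 to 2210 bases per gamma member, while the beta members have 1 exon each and share none. Of all 50-base stretches of a member's transcript, 41.0 to 66.6% occurred in another gamma member and 48.2 to 97.5% in another alpha member, against 0 to 12% in the beta cluster. The highest value is that of Pcdha4, whose first exon is annotated a second time as part of Pcdha4b. A read from a shared exon cannot be assigned to 1 member by its sequence, so alpha and gamma levels of single members rest in part on the estimate that divided such reads. Values that were not whole were held by 52 of the 59 members. Of these, 16 were beta members, so such values do not come from shared exons alone. In addition, 18 members are overlapped by an antisense gene, among them Pcdhgc3 and Pcdhgb7. With stretches in any other gene counted, on either strand, the share was 64.2% for Pcdhb12, 76.7% for Pcdhgc3 and 62.2% for Pcdhgb7. The antisense gene over Pcdhgc3, BC037039, held 40.4 to 119 counts in the brain libraries, and Gm26672, over Pcdhgb7 and its neighbours, held 6.11 to 109. The library kit named, NEBNext Ultra, is not named as a directional one, and without strand such overlapping reads cannot be told apart.

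The libraries held 6518151 to 14621584 counts in brain and 7302401 to 8289015 in testes, of which the members made up 0.173 to 0.194% and 0.0465 to 0.0595%. Brain WT 3 stood apart from the other brains, with the lowest depth, a scaling factor of 0.775 against 0.899 to 0.932 in the others, and a mean correlation with the other brains of 0.966 against 0.977 to 0.980. The osteocalcin gene Bglap held at most 5 counts in a brain and 2 in a testis, so the genotypes could not be checked by it.

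In brain, 14 of 15 alpha members and all 22 members of each other cluster had counts, and the gamma cluster gave most of the RNA. Levels are given in CPM (counts scaled by library size and TMM factor), and in CPM per kilobase of transcript where members are compared. The summed level of the gamma cluster was 1287 ± 85.5 CPM (SD, n = 9), or 62.4% of that of all members. The alpha cluster summed to 509 ± 23.6 CPM, or 24.7%, and the beta cluster to 265 ± 21.2 CPM, or 12.9%. Only Pcdha4b was at 0 in all 17 libraries.

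The C-type members led both clusters that hold them. Pcdhgc3, a gamma member known from many tissues besides brain, reached 79.4 ± 9.51 CPM per kilobase in brain (SD, n = 9), and Pcdhgc4, which neurons need to survive, reached 40.6 ± 4.70. The next gamma member, Pcdhga11, stood at 12.5 ± 1.23, and this order of the 3 held in all 9 brains. Pcdhgc3 alone held 29.4 ± 1.86% of the gamma counts, and the gamma C-type members together 47.6 ± 1.44%, against 35.0 ± 1.35% for the gamma A and 17.4 ± 1.20% for the gamma B members. In the alpha cluster, Pcdhac2, known from serotonergic axons, led with 20.1 ± 0.811 CPM per kilobase in all 9 brains. It was followed by Pcdha12 (10.2 ± 1.39) and Pcdha4 (9.12 ± 1.27), which overlapped. The other C-type members were lower, Pcdhac1 holding 1.5 ± 0.535% of the alpha counts and Pcdhgc5 1.39 ± 0.138% of the gamma counts. At 3.66 CPM per kilobase, Pcdhgc5 was the lowest gamma member in brain. The beta members lay closer together, with Pcdhb7 (6.28 ± 0.714), Pcdhb20 (6.16 ± 0.548) and Pcdhb17 (5.34 ± 0.691) highest, and Pcdhb7 above Pcdhb20 in only 3 of 9 brains. Pcdhb1, at 0.0485, and Pcdha8, at 0.232, were the lowest members with counts.

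In testes, the alpha cluster was almost silent while beta and gamma RNA was found in every library. The alpha members together held 20.2 to 46.0 counts per testis, or 3.49 ± 0.973 CPM (SD, n = 8). Pcdha1, Pcdha6, Pcdha8, Pcdhac1 and Pcdha4b were at 0 in all 8 testes, and no alpha member exceeded 3 counts in all of them. The highest were Pcdha4 (0.150 ± 0.188 CPM per kilobase), Pcdhac2 (0.144 ± 0.105) and Pcdha12 (0.118 ± 0.118), whose order could not be told at this depth. The beta cluster summed to 115 ± 13.8 CPM and the gamma cluster to 347 ± 36.2 CPM, or 24.7% and 74.5% of the members' RNA.

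Pcdhgc3 was again the highest member in testes, at 35.1 ± 3.31 CPM per kilobase (SD, n = 8), and held 48.4 ± 2.85% of the gamma counts. Pcdhgc4 followed with 6.21 ± 2.94, but it varied more and was above the next member, Pcdhgb6 (3.70 ± 0.972), in 5 of 8 testes. Pcdhb7, Pcdhb17 and Pcdhb20, which led in brain, had the highest beta means in testes too, at 2.32 ± 0.627, 2.31 ± 0.324 and 2.31 ± 0.395, but Pcdhb16 was as high (2.31 ± 0.163) and Pcdhb20 was above it in only 2 of 8 testes. Pcdhgc5 (0.612) was the lowest gamma member in testes too, and Pcdhb1 (0.00555) and Pcdha3 (0.0154) the lowest with counts in their clusters. Across members, the levels in the organs were related with Spearman's rho = 0.84 and Pearson's r = 0.84 on the log2 scale in the beta cluster (21 members), and with rho = 0.54 and r = 0.86 in the gamma cluster (22 members). These correlations are across members, which share libraries and, in the gamma cluster, reads.

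**Figure D1:**
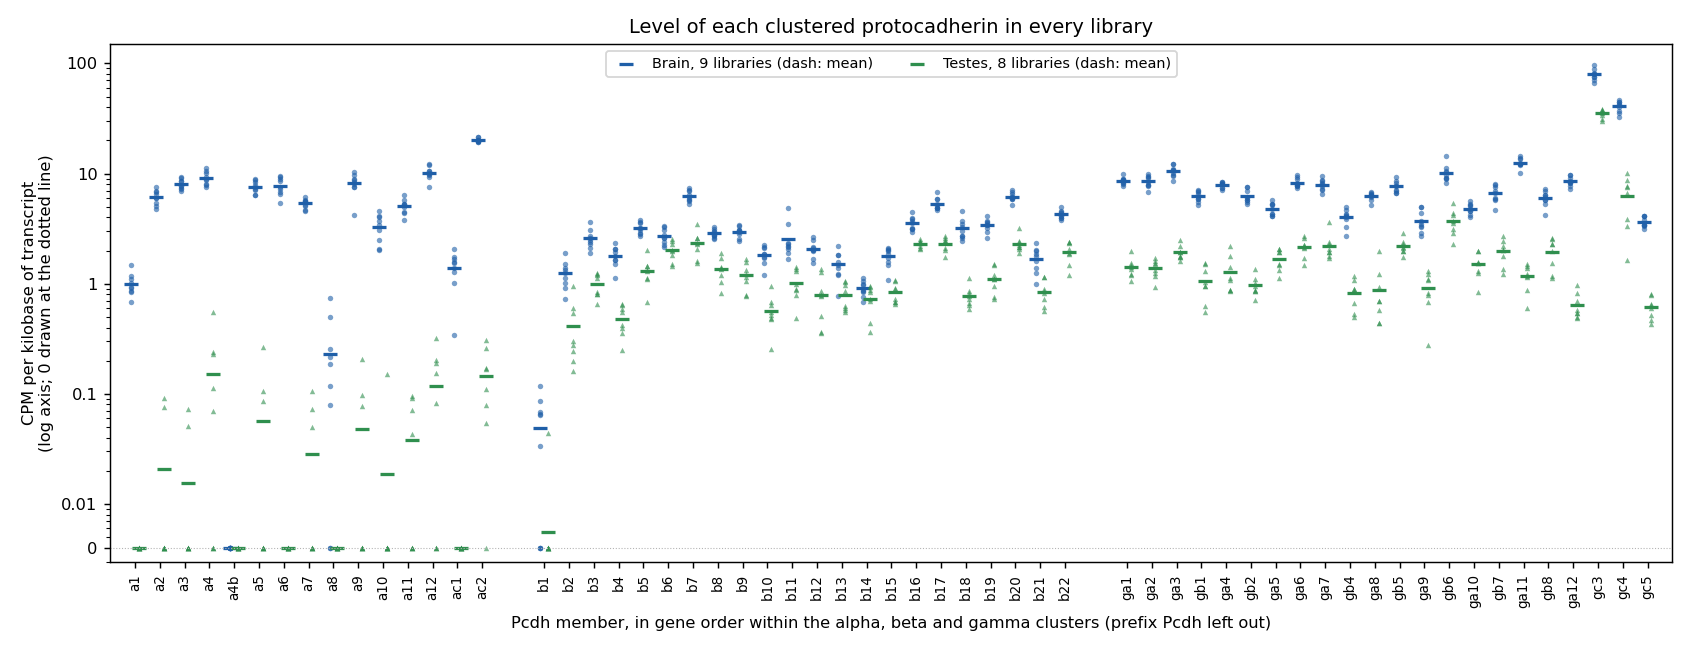
Level of each of the 59 members (x axis, in gene order within clusters) in CPM per kilobase of transcript (y axis, log scale with 0 on the dotted line), with a point per library and a dash for the mean, brain in blue (9 libraries) and testes in green (8 libraries). Pcdhgc3 is highest in both organs, at 79.4 and 35.1, and the alpha members reach at most 0.150 on average in testes.

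Every member tested had a lower level in testes than in brain, and the size of this difference followed the clusters. The summed alpha level was 146 times higher in brain than in testes, the gamma level 3.71 times and the beta level 2.30 times, and the lowest brain exceeded the highest testis for each of them. In a joint fit of both organs with edgeR's quasi-likelihood test, 56 of 57 members tested were lower in testes at an adjusted p under 0.05 and 0 were higher, when 39.9% of all genes tested were lower and 84.4% differed in either direction. Of the 57, 12 alpha members passed the filter on low counts through brain alone, where they are high, and had to come out lower, so the count is read for the other 45 members only, of which 44 were lower. For the 57th, Pcdhb14, CPM ranged from 5.88 to 9.72 in brain and from 3.18 to 8.22 in testes, and the edgeR log2 difference was −0.28 ± 0.17 (SE, adjusted p = 0.11). The median over all genes was 0.087.

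The beta members differed by a median log2 of −1.25, from −2.02 ± 0.13 for Pcdhb18 to the −0.28 of Pcdhb14. The gamma members differed by a median of −2.34, from −3.69 ± 0.11 for Pcdhga12 to −1.17 ± 0.06 for Pcdhgc3. Within the gamma cluster, the gamma B members had the smallest median difference (−1.78), against −2.52 for gamma A and −2.57 for the 3 C-type members. Pcdhgc4 (−2.85 ± 0.26) and Pcdhgc5 (−2.57 ± 0.13) thus lay well below Pcdhgc3, the C-type member with the smallest difference.

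The alpha members differed by a median log2 of −8.41, but 4 of the 14 tested had no count in any testis, and their fitted values depend on the prior count. With these 4 set at the bound that 3 counts per library allow, the median was −7.10. By the same bound, Pcdha6 was at least 122 times higher in brain, Pcdhac1 at least 22.3 times, Pcdha1 at least 15.4 times and Pcdha8 at least 3.64 times. The 10 alpha members with a count in some testis ranged from −9.52 ± 0.26 for Pcdha3 to −6.17 ± 0.36 for Pcdha4, with Pcdhac2 at −7.15 ± 0.17. The summed level of 10 neuron markers, among them Tubb3, Map2 and Snap25, ran from 9569 to 10891 CPM in brain and from 126 to 165 CPM in testes, with none of them at 0 in all testes. The 8 of them that passed the filter on low counts within testes were all lower there, and the part of neuron content in the members' difference was not tested. In whole organs, fewer cells of a type cannot be told apart from less RNA per cell.

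**Figure D2:**
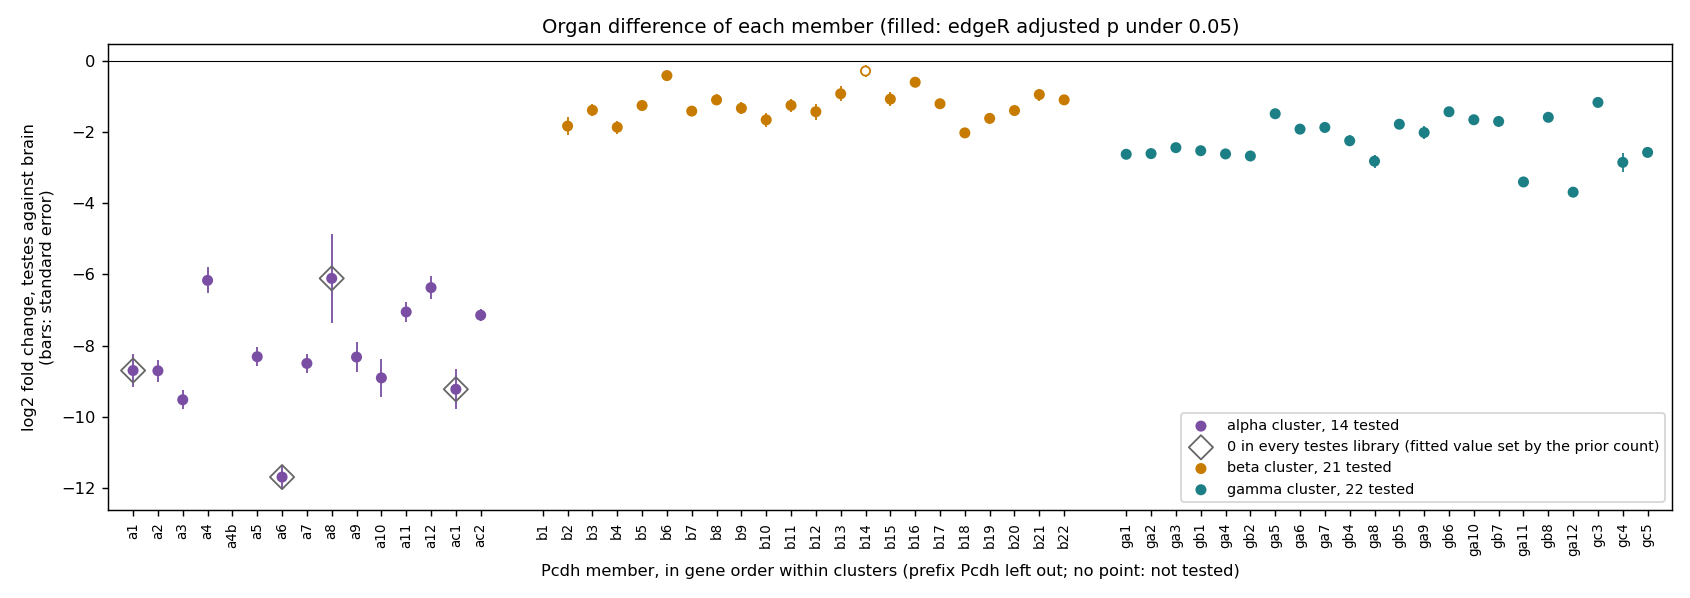
Log2 fold change of each member tested (y axis, testes against brain, bars are standard errors) in gene order (x axis), with filled points for an edgeR adjusted p under 0.05 and grey diamonds around the 4 alpha members at 0 in every testis. The alpha members lie far below the other clusters, and Pcdhb14 at −0.28 is the 1 open point. Of the alpha members, 12 passed the filter on low counts through brain alone, so their filled points are not read as results.

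Between genotypes, few members changed in brain. Of 57 members tested, 0 were called with edgeR in Ocn+/− against WT (adjusted p under 0.05), where 3.89% of all genes were called. There, 10 members and 3267 of 16076 genes had an unadjusted p under 0.05, and DESeq2 called 1 member and 909 genes. In Ocn−/− against WT, 1 member was called and 4.85% of all genes. In Ocn−/− against Ocn+/−, 0 members and 0.00622% of all genes were called. An unadjusted p under 0.05 was found for 4 members and 515 of 16076 genes, and DESeq2 called 0 members. When both mutant genotypes were averaged and set against WT, 3 members and 8.68% of all genes were called, all 3 members lower in the mutants. Without the filter on low counts, 7 of 58 members and 2086 of 28957 genes were called in this last comparison. In it, the median log2 change was −0.10 over the members and 0.0068 over all genes, and 16 of 57 members had a value above 0, against 50.9% of all genes. With library size alone, the median was −0.012 over the members and 0.096 over all genes, and 26 of 57 members had a value above 0. All comparisons with WT share the same WT libraries.

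Pcdhgb7, a gamma B member, had 38.9, 36.2 and 37.8 CPM in the 3 WT brains, 27.8, 32.3 and 33.3 in the Ocn+/− brains and 28.2, 28.7 and 22.4 in the Ocn−/− brains. All 6 mutant brains lay below every WT brain. Members that were not called had the same order, among them Pcdha7, Pcdhb16 and Pcdhgb1. Pcdhgb7 fell by 0.52 ± 0.12 on the log2 scale in Ocn−/− against WT (edgeR adjusted p = 0.021) and by 0.40 ± 0.11 in both mutant genotypes against WT (adjusted p = 0.0245). Without brain WT 3 the value for both genotypes was again −0.40, but the adjusted p was 0.0898. The call was also lost without WT 1 (adjusted p = 0.092) or WT 2 (adjusted p = 0.0595), and that in Ocn−/− alone without any 1 WT brain or Ocn−/− 3 (adjusted p = 0.0522 to 0.0721).

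Pcdhb18, a beta member, had 18.5, 17.4 and 23.2 CPM in WT brains, 15.1, 13.8 and 12.3 in Ocn+/− and 16.6, 13.1 and 13.8 in Ocn−/− brains. WT 3 was the highest of the 9 brains, and all mutants were below every WT brain, as in members that were not called. It fell by 0.47 ± 0.13 on the log2 scale in both mutant genotypes against WT (edgeR adjusted p = 0.0335), and the value without WT 3 was −0.36 (adjusted p = 0.208). The call was also lost without WT 1, Ocn+/− 2, Ocn+/− 3 or Ocn−/− 2 (adjusted p = 0.0524 to 0.0705).

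Pcdhgc3, the most abundant member, had 380, 426 and 465 CPM in WT brains, 355, 382 and 360 in Ocn+/− and 315, 337 and 390 in Ocn−/− brains. Here 1 Ocn+/− and 1 Ocn−/− brain lay within the WT range. It fell by 0.25 ± 0.08 on the log2 scale in both mutant genotypes against WT (edgeR adjusted p = 0.042), and the value without WT 3 was −0.18 (adjusted p = 0.253). The call was also lost without WT 2 (adjusted p = 0.123), without any 1 of the Ocn+/− brains (0.0502 to 0.0756) and without Ocn−/− 1 or 2 (0.0822 and 0.0791). In Ocn−/− against WT the value of Pcdhgc3 was −0.29 (edgeR adjusted p = 0.0604). It was called there with DESeq2 (adjusted p = 0.0375), without the filter on low counts (0.0249) and with the replicate block (0.0277). Leaving out WT 1 or Ocn−/− 3 gave edgeR calls too (0.0364 and 0.0156). Without brain WT 3, 0 members were called with edgeR in any genotype comparison in brain. For both mutant genotypes against WT, 6 members and 2815 of 16432 genes then had an unadjusted p under 0.05. Of all genes, 320 were then called for both mutant genotypes, in place of 1395. With library size alone, the adjusted p was 0.109 for Pcdhgb7, 0.0947 for Pcdhb18 and 0.211 for Pcdhgc3 in both mutant genotypes.

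The largest log2 differences in brain belonged to members that did not pass the test. Pcdha8 had 11.7, 9.01 and 19.9 counts in WT brains, 5.59, 30.9 and 18.4 in Ocn+/− and 0, 8.34 and 0 in Ocn−/− brains, too few to compare the genotypes firmly (−1.70 ± 0.78 for both mutant genotypes, edgeR adjusted p = 0.199). Without WT 3 its value was −0.92 and without Ocn−/− 2 it was −3.85, called at an adjusted p of 0.0391. It was also called without the filter on low counts in both genotypes (adjusted p = 0.0112), in Ocn−/− against WT (0.000182) and in Ocn−/− against Ocn+/− (0.0169), and with the replicate block in Ocn−/− against WT (0.0323). Pcdhb11 had 15.5, 8.38 and 21.6 CPM in WT brains, 9.81, 9.05 and 7.44 in Ocn+/− and 9.60, 10.05 and 10.4 in Ocn−/− brains. WT 2 lay among the mutants, and the difference was −0.67 ± 0.21 (adjusted p = 0.054). Without WT 3 it was −0.38 (adjusted p = 0.348) and without WT 2 −0.97 (adjusted p = 0.00435), and DESeq2 called it in the full set (−0.69, adjusted p = 0.0235). Pcdhac1 went the other way, with 5.53, 8.48 and 1.84 CPM in WT brains, 9.43, 9.11 and 7.49 in Ocn+/− and 6.91, 8.34 and 11.2 in Ocn−/− brains (0.66 ± 0.30, adjusted p = 0.195). Its lowest value was that of WT 3, WT 1 was also below every mutant brain, and WT 2 lay among the mutants. Without WT 3 the difference was 0.34 and without WT 2 it was 1.11 (adjusted p = 0.479 and 0.0509), and it was called without the filter on low counts (0.67, adjusted p = 0.0214). Pcdha10 had 11.2, 19.8 and 10.8 CPM in WT brains, 16.5, 21.9 and 21.5 in Ocn+/− and 13.4, 24.7 and 18.4 in Ocn−/− brains, with WT 2 among the mutants. Its difference was 0.47 ± 0.23 (edgeR adjusted p = 0.236), called without WT 2 (0.82, adjusted p = 0.0419) and without the filter on low counts (0.48, adjusted p = 0.0179). It was also called with the replicate block (edgeR adjusted p = 0.0427), and in Ocn+/− against WT without the filter (0.52, adjusted p = 0.0386).

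For both mutant genotypes against WT in brain, 7 of 7 gamma B members and 41 of all 57 members had a value below 0, with a median log2 of −0.26 for gamma B and −0.0046 for the 12 gamma A members. In Ocn+/− alone, 6 of 7 gamma B members had one. Of all genes, 50.9% had a value above 0 for both mutant genotypes. Gamma members share reads and the same WT libraries, so their directions are not independent. Pcdhgb5 (−0.28, edgeR adjusted p = 0.0746), Pcdhgb4 (−0.33, adjusted p = 0.151) and Pcdhgb1 (−0.23, adjusted p = 0.153) did not pass the test, and Pcdhgb8 (−0.09) and Pcdhgb2 (−0.025) lay near 0. Pcdhgc4 and Pcdhgc5 had values of 0.16 (adjusted p = 0.287) and 0.08 (adjusted p = 0.744), and Pcdhac2, at 114 to 126 CPM in WT and 113 to 126 CPM in mutant brains, −0.03 (adjusted p = 0.847).

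**Figure D3:**
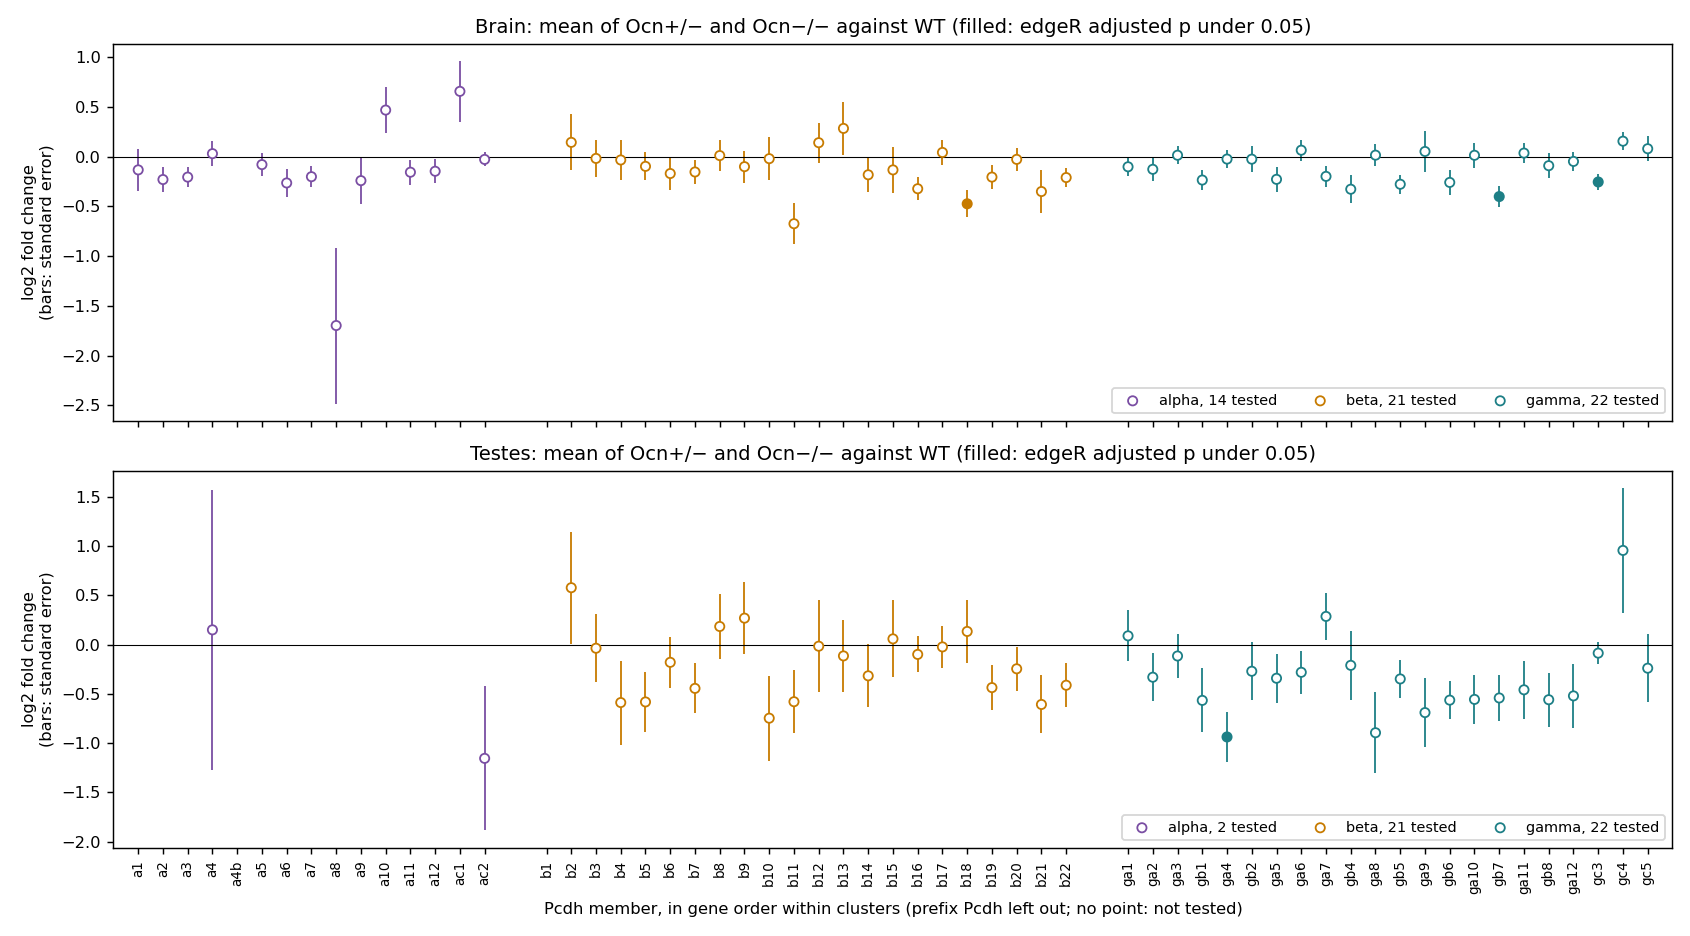
Log2 fold change of each member tested (y axis, mean of Ocn+/− and Ocn−/− against WT, bars are standard errors) in gene order (x axis), brain above and testes below, with filled points for an edgeR adjusted p under 0.05. The filled points are Pcdhb18, Pcdhgb7 and Pcdhgc3 in brain and Pcdhga4 in testes, all below 0.

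Markers of several cell types and of the olfactory bulb were called in the same comparison in brain, beside 8.68% of all genes. An unadjusted p under 0.05 was found there for 4081 of 16076 genes. Of 7 olfactory bulb markers tested with edgeR, Calb2 was higher (0.80, adjusted p = 0.0167) and Reln lower (−0.28, adjusted p = 0.0161) and 5 had an unadjusted p under 0.05, with a median log2 of 0.80. The median was 1.10 in Ocn+/− against WT, with 6 of 7 at an unadjusted p under 0.05, beside 3267 of 16076 genes. The summed level of this list was 628 to 746 CPM in WT, 695 to 731 in Ocn+/− and 517 to 646 CPM in Ocn−/− brains. Of 5 Schwann cell and neural crest markers tested, Fabp7, also a radial glia marker, was called as higher (0.31, adjusted p = 0.0231), the median was 0.59, and the list summed to 352 to 382 CPM in WT, 481 to 499 in Ocn+/− and 381 to 538 in Ocn−/− brains. Of 6 erythroid markers tested, 3 were lower and 0 higher in both mutant genotypes against WT with edgeR, and their summed level was 577 to 806 CPM in WT, 395 to 459 in Ocn+/− and 545 to 666 in Ocn−/− brains, Ahsp being at 0 throughout. Of 8 endothelial markers, 2 were lower and 0 higher (204 to 232, 182 to 223 and 176 to 249 CPM). Of 9 radial glia markers, 2 were higher and 1 lower, and of 10 neuron markers 1 was higher and 1 lower. The microglia and oligodendrocyte lists had 1 marker higher each and the peritubular and smooth muscle list 1 lower. In Ocn−/− against WT, where Pcdhgb7 was called too, 1 of 8 choroid plexus markers, Aqp1, was lower (−0.85, adjusted p = 0.0136) and 3 had an unadjusted p under 0.05, with a median of −0.51. This list summed to 656 to 841 CPM in WT, 653 to 979 in Ocn+/− and 367 to 610 in Ocn−/− brains. In the same comparison, the endothelial, erythroid, neuron and olfactory bulb lists had 1 marker lower each, and the microglia, oligodendrocyte and radial glia lists 1 higher each. Of all genes, 4.85% were called there, and 3489 of 16076 had an unadjusted p under 0.05. For both genotypes without brain WT 3, the calls numbered 0 for the olfactory bulb, Schwann cell, endothelial, oligodendrocyte and peritubular lists and 1 each for the erythroid, radial glia, neuron and microglia lists. Of 16432 genes, 320 were then called. The part of these cell types, and of the tissue dissected, in the members' differences was not tested.

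In testes, 45 members passed the filter on low counts, 2 alpha, 21 beta and 22 gamma. With edgeR, 0 members were called in Ocn+/− against WT, where 8.25% of all genes were called. There, 4 members and 4235 of 16361 genes had an unadjusted p under 0.05, and DESeq2 called 0 members and 1697 genes. In Ocn−/− against WT, 1 member and 5.64% of all genes were called. In Ocn−/− against Ocn+/−, 0 members and 0% of all genes were called. An unadjusted p under 0.05 was found for 2 members and 1881 of 16361 genes, and DESeq2 called 0 members. Both mutant genotypes against WT gave 1 member and 9.94% of all genes. The median log2 change was −0.32 over the 45 members and −0.0035 over all genes, and 9 of 45 had a value above 0, against 49.6% of all genes. With library size alone, these medians were −0.24 and 0.075, and 12 of 45 members had a value above 0.

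The member called in testes was Pcdhga4, a gamma A member. It had 8.64 and 10.5 CPM in the 2 WT testes, 4.09, 5.20 and 6.79 in Ocn+/− and 5.45, 4.26 and 4.22 in Ocn−/− testes. Neither WT testis overlapped with the 6 mutants, which were all lower. Members that were not called had the same order, among them Pcdhb4, Pcdhb5 and Pcdhgb5. Pcdhga4 fell by 1.04 ± 0.29 on the log2 scale in Ocn−/− against WT (edgeR adjusted p = 0.0448) and by 0.94 ± 0.25 in both mutant genotypes (adjusted p = 0.0279), while the value in Ocn+/− was −0.83 ± 0.29 (adjusted p = 0.0795). Without testes WT 2 the value for both genotypes was −0.77 (adjusted p = 0.356), without WT 1 it was −1.07 (adjusted p = 0.121) and without Ocn+/− 1 −0.85 (adjusted p = 0.0551). The call in Ocn−/− was lost without either WT testis, any 1 of the Ocn−/− testes or Ocn+/− 3 (adjusted p = 0.0514 to 0.424), and with library size alone (0.0543) or the replicate block (0.061). Pcdhga4 is the gamma member with the most sequence in common with the rest of its cluster (66.6% of its 50-base stretches).

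Pcdhgc4 had the largest positive difference in testes when both mutant genotypes were averaged, carried by 5 of 6 mutants, while in Ocn+/− alone Pcdhb2 (1.39 ± 0.60, edgeR adjusted p = 0.152) and Pcdha4 (1.18 ± 1.39, adjusted p = 0.639) lay above its 1.17. It had 17.9 and 20.5 CPM in WT testes, 40.4, 53.6 and 35.5 in Ocn+/− and 40.9, 8.75 and 47.0 in Ocn−/− testes. Ocn−/− 2 lay below both WT testes and the other 5 mutants above them. The log2 difference of both mutant genotypes was 0.96 ± 0.63 (edgeR adjusted p = 0.399), and without Ocn−/− 2 it was 1.18 ± 0.17 (adjusted p = 0.000928). As a share of the gamma counts, Pcdhgc4 held 5.15 ± 0.291% in the testes of WT, 11.9 ± 1.88% in those of Ocn+/− and 9.92 ± 6.01% in those of Ocn−/− pups. In the brains the shares were 14.9 ± 0.906%, 18.2 ± 0.864% and 17.5 ± 1.83%, in the same order.

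Pcdhac2, 1 of the 2 alpha members tested in testes, held 15.9 and 8.94 counts in WT libraries, 8.42, 0 and 12.8 in Ocn+/− and 4.40, 2.86 and 5.72 in Ocn−/− testes (−1.16 ± 0.73, edgeR adjusted p = 0.328), too few to tell the genotypes apart. Pcdhga8 had 3.36 and 9.52 CPM in WT testes, 2.78, 3.40 and 5.95 in Ocn+/− and 4.54, 2.13 and 2.14 in Ocn−/− testes, so that WT 1 lay among the mutants (−0.90 ± 0.41, adjusted p = 0.181). Without the filter on low counts it was called in Ocn−/− against WT (−1.12, edgeR adjusted p = 0.0451). In testes, where 36 of 45 members had a value below 0, so did all 7 gamma B members and 10 of 12 gamma A members, the gamma B values running from −0.57 for Pcdhgb1 to −0.21 for Pcdhgb4, and no gamma B member passed the test. These members share reads and WT libraries and are not independent. Pcdhgb6 had 26.04 and 21.1 CPM in WT testes, 14.0, 20.5 and 17.9 in Ocn+/− and 17.3, 15.1 and 11.0 in Ocn−/− testes, all mutants below both WT testes. Its value was −0.56 ± 0.19 (edgeR adjusted p = 0.0722), and it was called without the filter on low counts (adjusted p = 0.0322). Pcdhga9 had 5.93 and 6.30 CPM in WT testes and 3.33, 5.21 and 1.34 in Ocn+/− testes (−0.90 ± 0.41, adjusted p = 0.176), and was called without Ocn+/− 2 (−1.37, adjusted p = 0.0456). Pcdha9 held 0 and 9.88 counts in WT and 0 in all Ocn+/− testes, and was called only without the filter on low counts. Pcdhgc3 (−0.09, adjusted p = 0.644) and Pcdhgc5 (−0.24, adjusted p = 0.699) did not pass the test.

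Markers of several cell types were also called in testes. Of 8 endothelial markers tested with edgeR, 6 were lower and 0 higher in both mutant genotypes against WT, and their summed level of 532 to 538 CPM in WT lay above the 347 to 403 CPM of Ocn+/− and the 319 to 345 CPM of Ocn−/− testes, with none at 0. Of 8 neuron markers tested, 1 was higher and 1 lower, and the list summed to 136 to 151, 126 to 135 and 137 to 165 CPM. Of 6 erythroid markers tested, 0 were called, and the list summed to 2315 to 6088, 771 to 3473 and 1153 to 2237 CPM. Of 8 Leydig cell markers, 1 was lower and 3 had an unadjusted p under 0.05, and their summed level of 1822 to 1934 CPM in WT lay above the 936 to 1462 CPM of Ocn+/− and the 993 to 1359 CPM of Ocn−/− testes. The median log2 was −0.69 for the Leydig and −0.64 for the endothelial list. The germ cell and peritubular lists had 1 marker lower each, and the Sertoli cell and macrophage lists 1 higher each. Of all genes, 9.94% were called for both mutant genotypes, and 4421 of 16361 had an unadjusted p under 0.05. The part of these cell types in the members' differences was not tested.

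**Figure D4:**
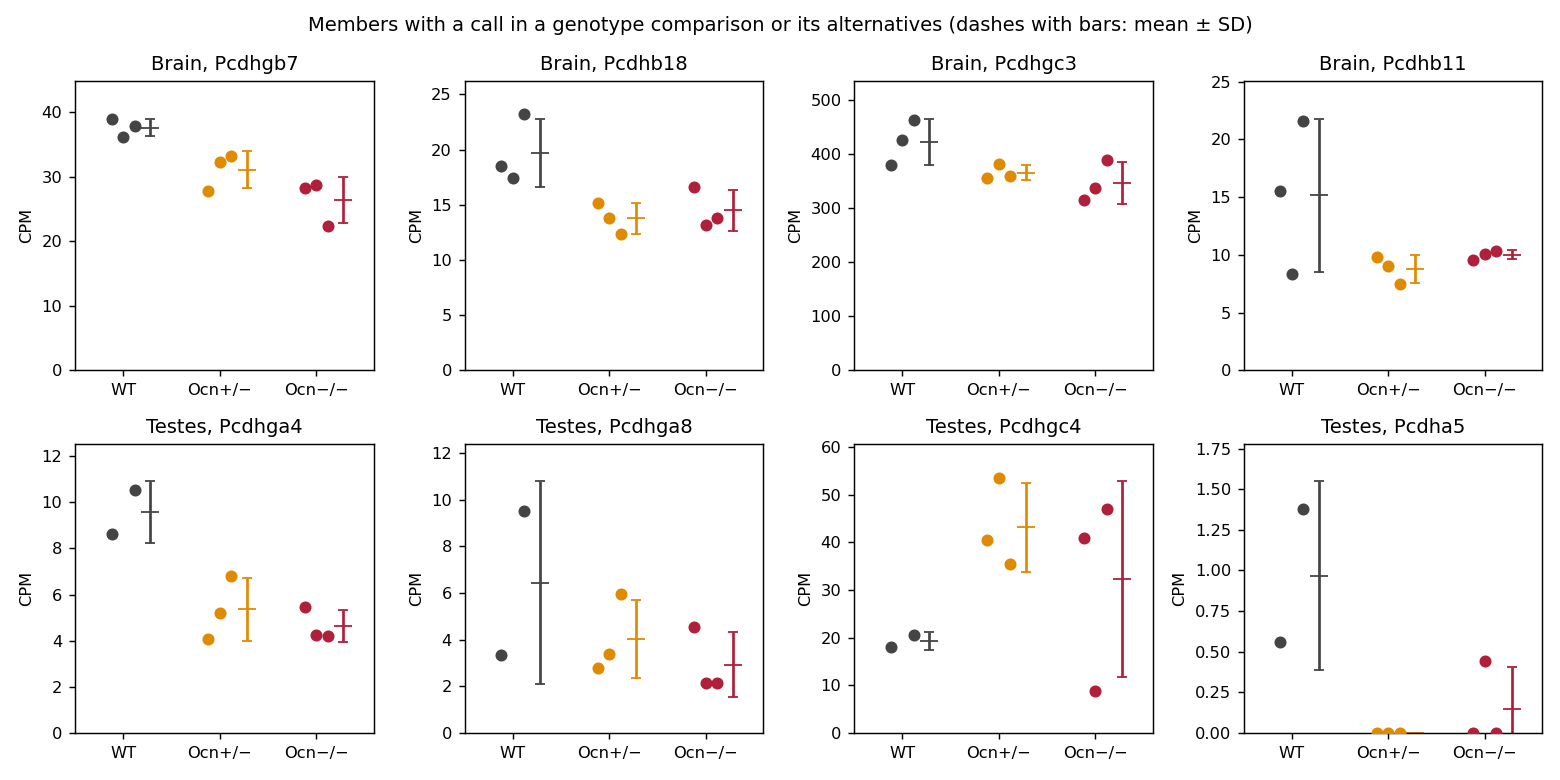
CPM of 8 members (y axes from 0) in each library by genotype (x axis), with mean ± SD, for brain above and testes below. Pcdhgb7 separates WT (36.2 to 38.9) from all mutant brains (22.4 to 33.3), an order also found in members not called. In testes Pcdhgc4 is higher in 5 of 6 mutants, with Ocn−/− 2 at 8.75.

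Summed over each cluster, the mean level was lower in each mutant genotype than in WT in both organs, by amounts that depend on scaling and were not tested. In brain, the alpha sum was 531 ± 3.28 CPM in WT, 495 ± 24.9 CPM in Ocn+/− pups and 502 ± 21.7 CPM in Ocn−/− pups (SD, n = 3 each), a log2 difference of −0.09 for both mutant genotypes beside an SD of 0.06 within genotypes. The beta sum was 284 ± 25.5, 250 ± 9.62 and 261 ± 12.5 CPM (−0.15, SD 0.09), and the gamma sum 1346 ± 67.9, 1297 ± 61.3 and 1217 ± 90.3 CPM (−0.10, SD 0.08). All 6 mutant brains lay below every WT brain for the alpha sum, and 3 of 6 for the beta and gamma sums. These sums do not depend on how reads of shared exons were divided within a cluster, but they do depend on scaling: with library size alone the 3 values were 0.00042, −0.057 and −0.0068.

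In testes, the beta sum was 130 ± 0.0673 CPM in WT (n = 2), 109 ± 12.8 in Ocn+/− and 111 ± 14.0 in Ocn−/− (n = 3 each), a log2 difference of −0.25 beside an SD of 0.16 within genotypes, with all 6 mutants below both WT testes. The gamma sum was 373 ± 14.7, 361 ± 38.2 and 315 ± 23.1 CPM (−0.15, SD 0.12), and 1 mutant testis lay above both WT testes. The alpha sum was 4.77 ± 0.567, 3.40 ± 0.628 and 2.73 ± 0.495 CPM (−0.66, SD 0.25), with every mutant below both WT testes, but it rests on at most 46.0 counts per library. With library size alone the log2 differences in testes were −0.17 (beta), −0.064 (gamma) and −0.57 (alpha).

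**Figure D5:**
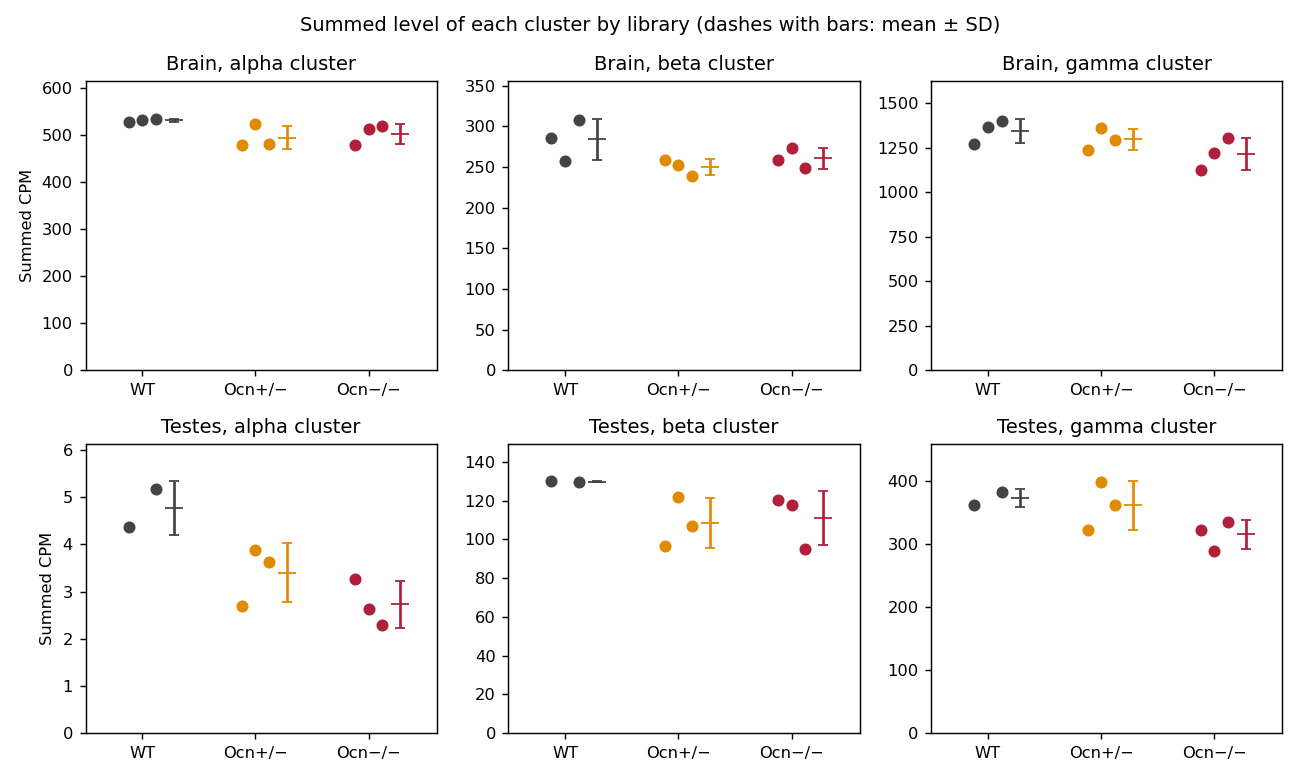
Summed CPM of each cluster (y axes from 0) in each library by genotype (x axis), with mean ± SD, for brain above and testes below. All 6 mutants lie below every WT library for the alpha sum in both organs and the beta sum in testes, and the alpha sum averages 509 CPM in brain and 3.49 CPM in testes.

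The joint fit also tested whether the difference of both mutant genotypes from WT was itself different between organs. It was called for 2 of 57 members with edgeR and for 2.96% of all genes, but 1 of the 2, Pcdha5, passed the filter through its brain counts alone and was not tested within testes. Pcdhga4 had 34.4, 40.7 and 40.2 CPM in WT brains, 38.7, 39.9 and 38.7 in Ocn+/− and 35.5, 35.9 and 38.6 in Ocn−/− brains, all overlapping, and its log2 difference in brain was −0.02. The log2 difference between organs was −0.93 ± 0.21 (adjusted p = 0.0191). Pcdha5 held 4.85 and 12.3 counts in WT testes, 0 in all 3 Ocn+/− testes and 0, 3.98 and 0 in Ocn−/− testes, beside 197 to 585 counts in brains, where its difference was −0.08. These testes counts are too few to compare the genotypes, and its call is not read as a result. For Pcdhga4, the difference between organs was not called without testes WT 2 (adjusted p = 0.199). The organ difference of Pcdhga8 was called without the filter on low counts (−0.93, adjusted p = 0.0239) and was −1.49 without testes WT 1, which leaves 1 WT testis. That of Pcdhgc4 went the other way and was called without testes Ocn−/− 2 (1.01, edgeR adjusted p = 0.00392, against 0.486 with all libraries).

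The nonclustered protocadherins, single genes of the same superfamily, were read as a list of 12. In testes against brain, 10 were lower and 2 higher, where 39.9% of all genes were lower and 44.5% higher, with a median log2 of −3.23, among them Pcdh10 (−5.62) and Pcdh19 (−4.72), the epilepsy gene of the family. The higher ones were Pcdh12 (1.22), an endothelial protocadherin, and Pcdh18 (1.20). For both mutant genotypes against WT, edgeR called 1 of 12 in brain, Pcdh8, an activity-regulated member (−0.30 ± 0.08, adjusted p = 0.0262), and 2 of 12 in testes, beside 8.68% and 9.94% of all genes. These were Pcdh9, which fell by 0.99 ± 0.17 on the log2 scale (adjusted p = 0.00237), and Pcdh7, which fell by 0.75 ± 0.14 (adjusted p = 0.00401). Pcdh9 stood at 40.2 to 49.8 CPM in WT testes, above 17.9 to 29.0 CPM in Ocn+/− and 17.9 to 23.7 CPM in Ocn−/− testes, with no overlap. In both, the difference between organs was also called (Pcdh9 −0.84, adjusted p = 0.0184, and Pcdh7 −0.72, adjusted p = 0.0148), and in brain the values were −0.17 and −0.04. Pcdh10 and Pcdh19 did not pass the test in either organ.

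Of 19 genes for promoter choice and silencing at the clusters, 16 were higher and 2 lower in testes than in brain (44.5% and 39.9% of all genes). Dnmt3b, the DNA methyltransferase that methylates the variable promoters in the early embryo, was higher by 3.04 ± 0.13 on the log2 scale. Rest, a repressor of neuronal genes, was higher by 3.36 ± 0.08. Ctcf differed by 0.15 ± 0.06 and Smchd1, a repressor of the clusters, by 0.58 ± 0.07. For both mutant genotypes against WT, edgeR called Dnmt3a, a DNA methyltransferase, in brain (0.38 ± 0.09, adjusted p = 0.0146) and Dnmt1, the maintenance methyltransferase, in testes (0.45 ± 0.12, adjusted p = 0.0286), both higher and the only calls of the 19. In Ocn+/− against WT, Wiz, a zinc finger protein that acts on chromatin loops, was called in testes in addition to Dnmt1 (0.47, adjusted p = 0.0432). Ctcf (0.03 in brain, 0.14 in testes), Smchd1 (0.17 and −0.04) and Dnmt3b (0.32 and 0.31) did not pass the test.

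Of 15 signalling partners of the cytoplasmic domains, such as FAK-family kinases, the WAVE complex and the processing proteases, 4 were higher and 11 lower in testes than in brain, and of all genes 84.4% differed in either direction. For both mutant genotypes against WT, edgeR called Ptk2b, the FAK-family kinase Pyk2, as higher in brain (0.48 ± 0.11, adjusted p = 0.0133), and Adam10, a protease that sheds protocadherin ectodomains, as lower in brain (−0.24 ± 0.07, adjusted p = 0.0327) and in testes (−0.41 ± 0.10, adjusted p = 0.0214). Ret, a receptor kinase that associates with protocadherins, rose by 0.91 ± 0.16 in testes (adjusted p = 0.00237), from 37.9 to 39.6 CPM in WT to 52.3 to 85.9 CPM in mutants. Axin1 was called in testes in Ocn+/− against WT alone of the 3 genotype pairs (0.57, adjusted p = 0.0293). The difference between organs was called for Ptk2b (−0.96, adjusted p = 0.0102). Without brain WT 3, edgeR called 0 genes of these 3 lists in brain, where the value of Dnmt3a was 0.37 (adjusted p = 0.0915), of Ptk2b 0.39 (adjusted p = 0.0956), of Pcdh8 −0.26 (adjusted p = 0.133) and of Adam10 −0.20 (adjusted p = 0.161).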

How the data were processed

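RNA of 17 libraries was analysed, assigned to organ, genotype and replicate by the sample labels. The authors trimmed the reads with Trim Galore 0.6.6, aligned them to GRCm39 with STAR 2.7.8a and deposited RSEM 1.3.3 expected counts per gene, without normalization. RSEM divides reads that match several genes, so shared exons of the alpha and gamma clusters affect single members. The labels name the NEBNext Ultra RNA library kit, and whether counting used strand is not given in the sources used here. Total counts per library were 6518151 to 14621584.

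Identifiers were named and placed with the GENCODE M39 annotation of GRCm39, in which 54749 were found. Shared sequence was counted as 50-base stretches of the longest protein-coding transcripts, whose length also set levels per kilobase. Expected counts were rounded and fitted in R 4.3.3 with edgeR 4.0.16 (TMM factors, filterByExpr by group, robust quasi-likelihood test, two-sided, no covariates), per organ over all genotypes and jointly over both organs. Calls required an adjusted p under 0.05 (Benjamini-Hochberg, over all genes tested). Folds against a group at 0 use 3 counts per library. Cluster sums are described by means and SDs with no test. Scripts were tested on simulated data and written with Python 3.11.15, and limma 3.58.1 was loaded with edgeR.

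The members and lists were chosen with earlier results of these data known. The comparison of both mutant genotypes with WT was added after seeing the data. Named with values are members called in a genotype comparison, C-type members, the 3 highest per cluster and organ, the 3 largest genotype differences per organ, the extremes of the organ difference, and members called only in alternatives. In the other lists, those called and Ctcf, Smchd1, Dnmt3b, Pcdh19, Pcdh9 and Pcdh10 are named, while Rest, Pcdh12, Pcdh18, Pcdhb2, Pcdhb16, Pcdhgb1, Pcdhgb2, Pcdhgb8, Pcdhgb4 and Pcdhgb5 were named after their values were seen. Alternatives were upper quartile or library-size scaling, DESeq2 1.42.0, no filter on low counts, the replicate number as a block, leaving out each library, and exon-union lengths. With each group's mean subtracted, same-numbered libraries of different genotypes correlated at −0.04 to 0.15 in brain and −0.09 to 0.09 in testes, so the numbers were not taken as pairs. With 2 WT testes, these deviations from the mean mirror each other.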

Additional observations from a re-analysis of the deposited data

Results flagged for a closer look

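The difference of both mutant genotypes from WT differed between organs for Pcdhga4 by the joint edgeR fit. The log2 value in testes minus that in brain was −0.93 ± 0.21 (adjusted p = 0.0191, 2 WT and 6 mutant testes, 3 WT and 6 mutant brains). The 6 mutant testes were all lower than the WT testes, as in members that were not called, and the brains overlapped. The adjusted p was 0.05005 without testes WT 1, 0.199 without testes WT 2 and 0.0612 without brain WT 1. Pcdha5 passed the same threshold with a fitted value of −4.38, but it entered the joint fit through its brain counts alone and failed the filter within testes, where it held 4.85 and 12.3 counts in WT and a count above 0 in 1 of 6 mutants. Its value is given as a description and is not read as a difference between organs.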

How the results depend on the processing

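Single members are limited by the division of shared reads in the alpha and gamma clusters, by 2 WT testes and by brain WT 3, without which no member was called in brain. Without the filter on low counts, the members called with edgeR in brain numbered 2 in Ocn+/− against WT, 3 in Ocn−/− against WT, 1 in Ocn−/− against Ocn+/− and 7 in both genotypes against WT (beside 1265, 1502, 34 and 2086 of 28957 genes), and in testes 2 in Ocn+/−, 3 in Ocn−/− and 3 in both (beside 2149, 1763 and 2351 of 29196). With library size alone they numbered 0 in Ocn−/− against WT in brain and testes and 0 in both genotypes in brain (beside 643, 1153 and 1142 genes), and this scaling moved the brain cluster sums to 0.00042 (alpha), −0.057 (beta) and −0.0068 (gamma). DESeq2 called 1 member in brain Ocn+/− and 2 in brain Ocn−/− against WT (beside 909 and 1142 genes). With the replicate number as a block, which does not pair the libraries, 3 were called in brain Ocn−/− and 0 in testes Ocn−/− against WT (beside 1140 and 836 genes, and 7 of 17 libraries correlated best with their own number). Per exon union, the highest members were Pcdhgc3 in brain (67.8) and testes (29.96) and Pcdhac2 among the alpha members in testes (0.141 CPM per kilobase). Leaving out 1 library gave 0 to 1 members in brain Ocn+/−, 0 to 2 in brain Ocn−/−, 0 to 1 in testes Ocn+/−, 0 to 1 in testes Ocn−/−, 0 to 3 in brain and 0 to 2 in testes for both genotypes (beside 320 to 1527 and 125 to 2497 genes), 0 to 3 for the difference between organs and 55 to 56 for testes against brain, where the fit of Pcdha8 failed without brain Ocn−/− 2. Signs turned for Pcdhac2 in brain (0.068 with library size alone, and −0.063 to 0.0089 without 1 library, the highest without WT 3) and Pcdhb14 between organs (0.034 with library size alone). Of 481 alternative values for 28 results on single members, 431 kept direction and side of the threshold, 39 lost the call, 8 gained one and 3 turned. The causes were not tested.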
